A study of Homo sapiens with 5 samples.

Results

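Interferon-response cells of the triple-negative breast cancer line MDA-MB-468 were chosen by their counts of 6 interferon-stimulated genes. A cell was taken when it held at least 1 count in 3 or more of IFIT1, IFIT3, MX1, OAS1, IFI44L and CMPK2, and it was set against cells of the same library with a count in none of them, called marker-negative here. The rule gave 192 interferon-response cells and 2620 marker-negative cells of 4101, and the other 1289 cells held 1 or 2 of the genes. Cells came from 5 single-cell libraries made with a 3′ Chromium kit, which counts RNA molecules by unique identifiers. All cells were a pool carrying expressed lineage barcodes and were frozen and thawed before capture. The treated libraries held cells after 3, 6 and 9 days (D3, D6, D9) of 250 nM afatinib, an irreversible inhibitor of EGFR and ERBB2, with 1 library a day, and the reference was 2 untreated libraries of day 0 (D0 replicates 1 and 2).

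Type I and type III interferons are secreted proteins that alert cells to viral nucleic acid. They bind receptors that signal through the kinases JAK1 and TYK2 to a complex of transcription factors that includes STAT2 and IRF9 and binds interferon-stimulated response elements in promoters, raising a broad set of antiviral genes. Sensors of double-stranded RNA such as RIG-I and MDA5 induce the interferons through IRF3 and NF-kB, and IRF3 also raises some of the same genes and chemokines directly.

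The response element can be looked for in promoters of interferon-stimulated genes. The letters GAAANNGAA, the core of the element, were searched on both strands in the 250 bases before each RefSeq gene start (GRCh38.p14). They occurred for 55.3% of the 47 genes with a window among 58 interferon-stimulated genes that were tested, against 8.41% of all 27305 genes with a window. The palindrome TTCNNNGAA, known as the gamma-activated site, was found for 23.4% of the same 47 genes and 8.09% of all. For all genes that rose the share is not given, because only 286 of 379 had a window. A match is a description of the letters and not a measured binding site. Windows of 150 bases before the start are shown for 5 genes that rose and that hold the core there, in capitals on either strand, to show what the element looks like. The same window of CXCL10, which also rose, holds no match, while the search over 250 bases found 1 for it. The window of ISG15, a ubiquitin-like modifier, is chr1:1013347-1013496 (plus strand), and that of IFI27, a small mitochondrial protein, is chr14:94110586-94110735 (plus). For IFI6, a related membrane protein, it is chr1:27672193-27672342 (minus). For BST2 or tetherin, which holds budding virus at the cell surface, it is chr19:17405631-17405780 (minus). For IFIH1, which encodes MDA5, it is chr2:162318685-162318834 (minus).
ISG15: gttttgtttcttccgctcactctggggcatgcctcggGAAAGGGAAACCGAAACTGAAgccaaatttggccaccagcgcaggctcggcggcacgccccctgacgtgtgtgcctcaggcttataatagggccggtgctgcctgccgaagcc
IFI27: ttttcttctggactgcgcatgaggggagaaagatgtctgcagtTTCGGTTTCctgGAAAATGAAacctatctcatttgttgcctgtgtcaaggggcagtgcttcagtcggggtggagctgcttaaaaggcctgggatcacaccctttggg
IFI6: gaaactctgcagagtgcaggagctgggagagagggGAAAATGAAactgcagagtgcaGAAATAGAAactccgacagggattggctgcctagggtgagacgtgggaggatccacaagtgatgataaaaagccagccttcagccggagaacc
BST2: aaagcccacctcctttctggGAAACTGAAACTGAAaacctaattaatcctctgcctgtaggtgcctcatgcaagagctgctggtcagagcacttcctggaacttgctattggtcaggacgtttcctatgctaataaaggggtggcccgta
IFIH1: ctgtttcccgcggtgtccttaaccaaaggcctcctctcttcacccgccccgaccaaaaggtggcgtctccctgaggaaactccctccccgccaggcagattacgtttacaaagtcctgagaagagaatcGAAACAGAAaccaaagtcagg
ISG15 holds 3 overlapping matches, IFI27, IFI6 and BST2 hold 2 each, and IFIH1 holds 1 close to its start.

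Libraries held 478 to 1139 cells, with a median total of 13862 counts a cell at D6 and 45658.5 in D0 replicate 1. The deposited counts had been adjusted for batch by the authors. Nothing in the labels ties the libraries to independent cultures, and every p-value here reflects library-to-library spread that may be technical. Libraries shared 1 cell barcode. The cells carried epithelial markers of the line. KRT8 and KRT18, keratins of simple epithelium, had a count in 100% of interferon-response cells, against 99.0% and 98.4% of marker-negative cells, and EPCAM in 99.0% of interferon-response cells, against 97.7%. None of the 13 leukocyte markers searched, PTPRC and CD14 among them, was in the matrix of 12474 genes, and of 11 fibroblast and endothelial markers only COL1A1, ACTA2 and KDR were. Those 3 summed to 4.56 to 22.2 CPM (counts scaled to a common total per library) in interferon-response cells and 5.09 to 15.4 CPM in marker-negative cells. The authors had removed genes found in few cells at a low mean, so a marker missing from the matrix may still have been expressed.

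The genes of the rule describe the cells and are not tested. MX1, a GTPase that blocks viral nucleocapsids, had a count in 95.3% of the 192 cells, OAS1, which makes the activator of RNase L, in 81.8%, IFIT1 and IFIT3, which bind viral RNA and each other, in 71.4% and 69.8%, IFI44L in 53.6%, and the nucleotide kinase CMPK2 in 47.9%. The counts were unevenly spread over cells. The median cell held 5 counts of MX1 and the highest held 143, and for IFIT1 the median was 2 and the highest 229. In library order (D0 replicate 1, D0 replicate 2, D3, D6, D9, used for all lists of 5 values), MX1 stood at 178, 247, 329, 343 and 273 CPM in the summed interferon-response cells, and IFIT3 at 129, 60.4, 157, 309.5 and 489 CPM. At the edge of the rule, the 76 cells with 3 of the genes had a median of 4070.3 CPM summed over 63 other interferon-stimulated genes, and the 249 cells with 2 had 2235 CPM, at median totals of 28945.5 and 28756 counts.

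The share of interferon-response cells was 7.74% (37 of 478 cells, exact binomial 95% interval 5.51 to 10.5) in D0 replicate 1, 2.92% (1.99 to 4.11) in D0 replicate 2, 8.56% (6.21 to 11.4) after 3 days, 3.82% (2.69 to 5.25) after 6 days and 4.13% (3.05 to 5.45) after 9 days of afatinib. Intervals cover counting error only. The mean was 5.50% over the afatinib libraries and 5.33% over the untreated libraries, a difference of 0.174 percentage points (exact permutation test of 3 against 2 libraries, two-sided p = 1, smallest possible 0.1). The D0 replicates differed from each other by more than the treatments did. The rule took a larger share of the deepest than of the shallowest cells in each library, by unequal margins. With each library split into 3 equal groups by depth, it took 14.5% of the deepest and 3.75% of the shallowest cells in D0 replicate 1, and 6.05% and 1.59% at D6. In D0 replicate 2 these shares were close, at 3.11% and 2.25%. With every cell thinned to 5000 counts before the rule, the shares were 1.05%, 0.659%, 3.34%, 2.12% and 1.58% in library order. Each afatinib library then lay above both untreated ones, a mean difference of 1.5 points (exact permutation test, p = 0.2). Among cells with under 10% mitochondrial counts the D3 share was 17 of 85 cells, with 6.91% after 6 days and 4.78% after 9 days, against 8.97% and 3.37% in the untreated libraries, so that D6 and D9 lay between the untreated ones.

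**Figure D1:**
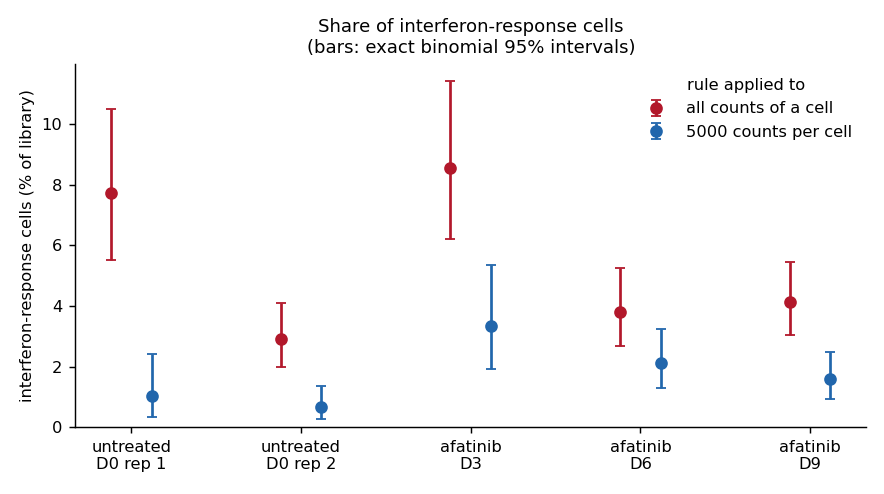
Share of interferon-response cells in each library as a percentage of its cells (vertical axis), with the rule applied to all counts of a cell (red) and to 5000 counts drawn from each cell (blue). Bars are exact binomial 95% intervals; at equal depth the shares were 1.05% and 0.659% in the untreated libraries and 1.58% to 3.34% in the afatinib libraries.

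Interferon-response cells were deeper than marker-negative cells in 5 of 5 libraries, with median totals of 57125, 26514, 29102, 19645.5 and 24262 counts, against 41828, 24608, 17090, 12284 and 18888 (exact sign-flip test over 5 differences, p = 0.062, the smallest possible, and 0.125 adjusted over the 4 measures). The rule itself favours deeper cells, since a deeper cell more easily shows a count of a sparse gene, so this test cannot separate depth from the selection. With every cell thinned to 5000 counts before the rule, the mean difference in median total was 217 counts, higher in 3 of 5 libraries. The mitochondrial share of their summed counts was lower in 5 of 5 libraries, 5.95% to 12.7%, against 8.03% to 21.0% in marker-negative cells (exact p = 0.062). Against marker-negative cells of matching depth (190 pairs) the mean difference in mitochondrial share was -1.33 points, lower in 3 of 5 libraries (exact p = 0.25), compared with -3.89 points for all marker-negative cells. Cells assigned to S phase were more frequent in 2 of 5 libraries (mean difference -0.553 points, SD 7.83, exact p = 0.688), and cells assigned to G2/M in 2 of 5 (5.13 points, SD 11.4, exact p = 0.5). The differences below were repeated in depth-matched cells. Depth matching left a lower mitochondrial share in interferon-response cells at D3, 11.8% against 16.1%, and in D0 replicate 2, 6.53% against 8.13%, and the part of that share in the differences was not tested in depth-matched cells.

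Counts were summed per library and cell state and compared within libraries by edgeR's quasi-likelihood test, with Benjamini-Hochberg adjustment and calls at an adjusted p under 0.05. Of 11771 genes outside the rule, 379 were higher in interferon-response cells (3.22%) and 243 lower (2.06%), 5.28% in either direction, and the median log2 fold change over all genes was -0.01. In depth-matched cells 228 of 9158 were higher (2.49%). Leaving out D0 replicate 1 gave 252 higher and 113 lower genes, and leaving out D3 or D6 gave 131 or 145 lower genes. Cells with 1 or 2 of the 6 genes differed far less from marker-negative cells, with 35 of 11993 genes higher (0.292%), 6 of 53 interferon-stimulated genes among them (median 0.22).

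Of the 58 tested genes in a list of interferon-stimulated genes that leaves out those of the rule, 55 rose and 0 fell, with a median log2 fold change of 2.22 against -0.01 for all genes, and 46 had their lowest interferon-response sum above their highest marker-negative sum, as 1.74% of all genes did. In depth-matched cells 48 of the 50 tested rose. The 3 that were not called were PNPT1 (0.36 ± 0.11 SE, adjusted p = 0.063), RNF213 (0.23 ± 0.10, adjusted p = 0.2) and IFI30 (0.19 ± 0.09, adjusted p = 0.31). Per cell, the 63 genes of this list in the matrix summed to medians of 4317, 4935, 6672, 8039 and 9814 CPM in interferon-response cells, against 1719, 1821, 1804, 1830 and 2002 CPM in marker-negative cells. The median rose with the number of rule genes that a cell held, 1856 CPM at none, 1956 at 1, 2235 at 2, 4070.3 at 3, 5580 at 4, 8211 at 5 and 12968 at 6. The ranges over single cells overlapped in every library.

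**Figure D2:**
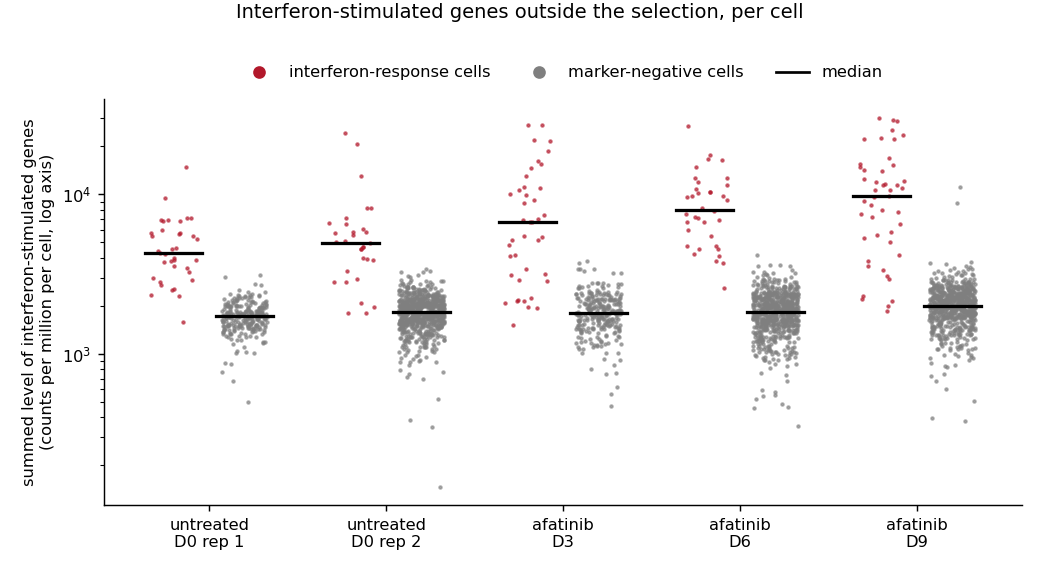
Summed level of 63 interferon-stimulated genes outside the rule in single cells (CPM, log axis) for interferon-response cells (red) and marker-negative cells (grey) of each library, with the median as a black line. Medians of interferon-response cells ran from 4317 to 9814 CPM and those of marker-negative cells from 1719 to 2002 CPM, and the clouds overlap.

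Genes nearly silent in other cells led the list. IFI27 stood at 194, 134, 149, 177 and 63.04 CPM in interferon-response cells, against 0.283, 0.550, 0.484, 0.578 and 0.522 CPM in marker-negative cells (log2 fold change 8.0 ± 0.19 SE, adjusted p = 8.9e-19). Every interferon-response sum was above every marker-negative one, and the lowest was D9. XAF1, a partner of the apoptosis inhibitor XIAP, stood at 15.0, 29.6, 42.8, 41.4 and 23.0 CPM in interferon-response cells, against 0.188, 0.220, 0, 0.0963 and 0 CPM (7.67 ± 0.39). IFI6 had 100.2, 143.5, 240.4, 333 and 424 CPM in interferon-response cells, against 1.41, 2.42, 2.10, 1.54 and 2.61 CPM (6.75 ± 0.18). Its levels were higher in each afatinib library than in either untreated one within interferon-response cells, while marker-negative cells stayed between 1.41 and 2.61 CPM.

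IFIT2, an RNA-binding relative of IFIT1, had 169, 9.11, 136, 166 and 496 CPM in interferon-response cells, against 0.0942, 0.165, 0.645, 0.963 and 1.04 CPM in marker-negative cells (8.29 ± 0.22), with 28.4% of its counts in 1 cell. OASL, a relative of the oligoadenylate synthetases that acts with RIG-I, had 87.3, 43.3, 177, 749 and 1146 CPM in interferon-response cells, against 0.0942, 0.385, 1.45, 1.73 and 6.78 CPM in marker-negative cells (7.67 ± 0.18). RSAD2, which encodes viperin, had 24.9, 31.9, 55.0, 186 and 168 CPM in interferon-response cells, against 0.0942, 0.385, 1.13, 0.867 and 0.820 CPM (7.08 ± 0.24). The groups did not overlap for any of the 3 genes, and D0 replicate 2 was the lowest interferon-response library for IFIT2 and OASL. Also among the 25 largest rises were OAS2 (7.55), IFI44 (6.57), SAMD9L (6.49), PLAAT4 (4.72), HERC5 (4.51), DDX60 (4.31), TRIM22 (3.95), SAMD9 (3.71), HERC6 (3.53), LGALS9 (3.30) and IFIT5 (3.11), most of them restriction factors or ubiquitin and ISG15 ligases, and CFB, a complement component (4.01). ISG15 stood at 405, 412, 732, 1399 and 1770.3 CPM in interferon-response cells and was expressed in marker-negative cells too, at 25.4, 43.9, 29.3, 29.4 and 42.9 CPM (4.52 ± 0.23, adjusted p = 1.8e-12).

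Several of these genes lie beside genes of the rule (GRCh38, GENCODE 44). RSAD2 (chr2:6865557-6898239) and CMPK2 (chr2:6840570-6866635) run in opposite directions from starts close together, IFI44 (chr1:78649796-78664078) follows IFI44L (chr1:78619902-78646145), OAS2 (chr12:112978395-113011723) lies near OAS1 (chr12:112905856-112933219), and IFIT2 and IFIT5 flank IFIT3 and IFIT1 on chr10:89283694-89421605. IFI27, OASL, ISG15 and CCL5 do not lie in those groups.

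**Figure D3:**
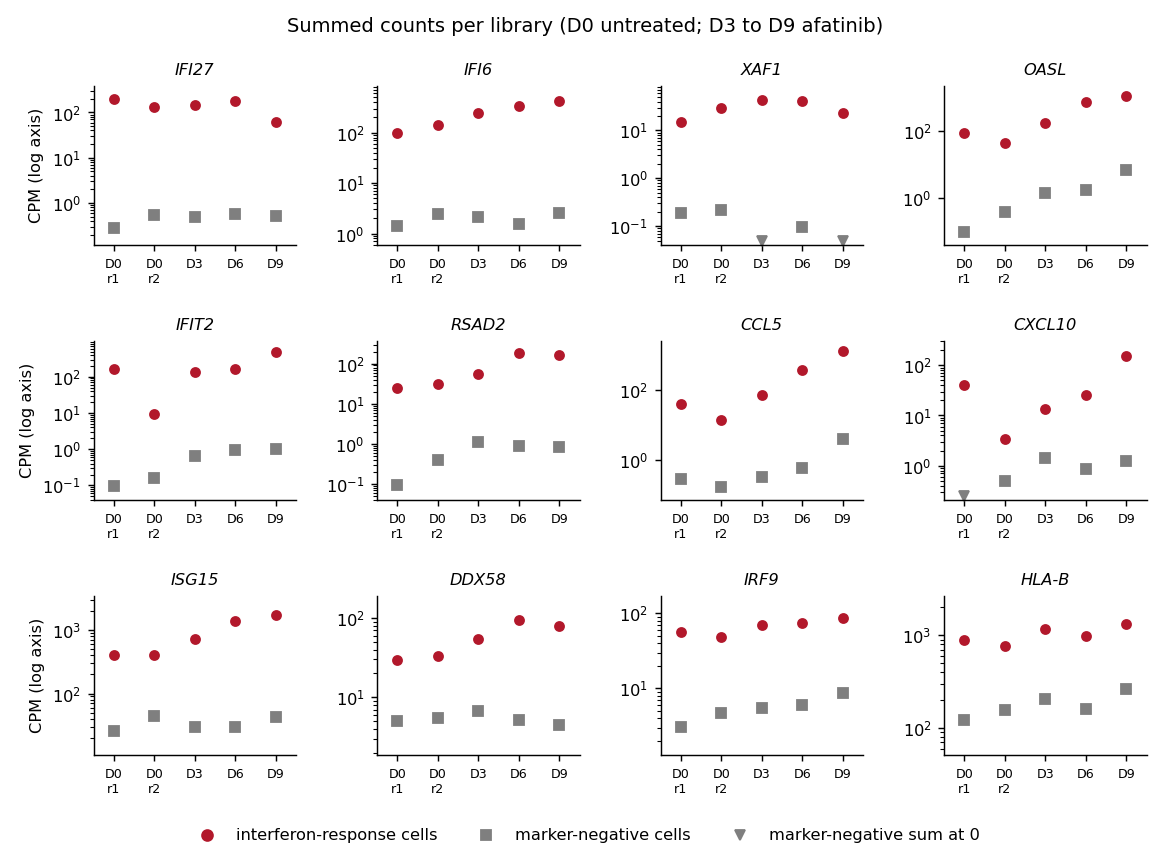
CPM of 12 genes (log axis, 1 panel a gene) in the summed interferon-response cells (red circles) and marker-negative cells (grey squares, triangles where the sum was 0) of each library, D0 replicates 1 and 2 untreated and D3 to D9 with afatinib. In all 12 panels every red point lies above every grey one.

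Of 16 tested genes for JAK kinases, STAT and IRF factors 7 rose and 0 fell (median 0.50). They included STAT2 and IRF9 of the complex that answers type I and type III interferon. IRF9 had 57.2, 49.0, 70.5, 73.8 and 86.0 CPM in interferon-response cells, against 3.11, 4.67, 5.48, 5.97 and 8.65 CPM in marker-negative cells (3.55 ± 0.16, adjusted p = 1.2e-13). STAT2 changed by 1.52 ± 0.20. IRF7, which amplifies interferon output, had 45.1, 53.5, 83.3, 71.2 and 62.2 CPM in interferon-response cells, against 7.26, 8.91, 8.87, 8.47 and 13.8 CPM (2.65 ± 0.15). IRF1, an early interferon-induced factor, changed by 1.20 ± 0.13 and IRF2 by 0.80 ± 0.17, the second losing its call without D0 replicate 1. JAK1 was called at 0.31 ± 0.08 (adjusted p = 0.032), a call lost in depth-matched cells (adjusted p = 0.097) and without any 1 of the 5 libraries. Those that did not pass included JAK2 and TYK2, with log2 fold changes of 0.81 for JAK2, 0.69 for STAT5A, 0.16 for STAT6, 0.06 for IRF3, -0.04 for both IRF2BP2 and STAT3, -0.17 for TYK2 and -0.21 for STAT5B.

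None of the 6 tested interferon receptor chains passed in either direction (median 0.08). IFNAR1 and IFNAR2, the type I receptor, were at 0.07 ± 0.13 (adjusted p = 0.84) and -0.13 ± 0.16 (0.75), IFNLR1 and IL10RB, the type III receptor, at 0.38 ± 0.40 (0.67) and 0.09 ± 0.13 (0.77), and IFNGR1 and IFNGR2, the type II receptor, at 0.01 ± 0.09 (0.97) and 0.30 ± 0.13 (0.22), each from edgeR with 5 of 5 libraries in the fit. IFNGR2 was higher in all 5 libraries without passing the correction. IFNLR1 was sparse, at 25 counts in all interferon-response cells.

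Interferon transcripts themselves were rare and lay almost wholly within these cells. They were too few for the test and are given as counts. IFNL1, a type III interferon, had a count in 21 of 192 interferon-response cells (10.9%, exact 95% interval 6.90 to 16.2), against 1 of 2620 marker-negative cells (0.04%, up to 0.21), and 1 further cell held 1 or 2 of the rule genes. The 21 cells were 1 of 37 in D0 replicate 1, 1 of 31 in D0 replicate 2, 2 of 41 at D3, 4 of 36 at D6 and 13 of 47 at D9. A single cell of D0 replicate 1 held 101 of the 250 counts, and the highest cell of D9 held 92. IFNB1 had a count in 4 interferon-response cells and in 1 marker-negative cell, with 66 of its 76 counts in 1 cell of D0 replicate 1. IFNL3 had a count in 3 interferon-response cells and IFNL2 in 2, against 0 of 2620 marker-negative cells for both, with an exact 95% upper bound of 0.14%. IFNL2 and IFNL3 are near-identical copies that reads can confuse, so their split is uncertain. With every cell thinned to 5000 counts, IFNL1 was found in 6.25% of interferon-response cells and 0% of marker-negative cells.

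Nucleic acid sensing genes changed in part. Of 15 tested, 5 rose and 0 fell (median 0.55). DDX58, which encodes RIG-I, had 29.2, 33.0, 54.4, 95.8 and 79.2 CPM in interferon-response cells, against 4.99, 5.50, 6.61, 5.20 and 4.47 CPM in marker-negative cells (3.27 ± 0.23, adjusted p = 4e-10). IFIH1 had 72.7, 61.5, 92.7, 207 and 254 CPM in interferon-response cells, against 15.1, 18.7, 13.7, 10.8 and 12.8 CPM (3.06 ± 0.26). SAMHD1, which depletes nucleotides and limits retroviruses, changed by 2.90 ± 0.21, TRIM25, a ubiquitin ligase acting on RIG-I, by 0.64 ± 0.12, and the RNA editor ADAR by 0.62. These 5 are themselves interferon-stimulated. The adaptors MAVS (-0.37 ± 0.12, adjusted p = 0.095) and STING1 (0.34 ± 0.22, 0.45) and the kinase TBK1 (0.16 ± 0.17, 0.68) did not pass. Of 13 tested genes that silence retroelements, 0 rose and 0 fell (median -0.13).

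Of 12 negative regulators of the pathway 2 rose, where 3.22% of all genes did. USP18, which removes ISG15 and blocks the type I receptor, had 27.1, 51.3, 65.5, 57.0 and 61.3 CPM in interferon-response cells, against 9.23, 9.40, 13.5, 14.5 and 16.6 CPM in marker-negative cells (1.95 ± 0.15, adjusted p = 1.9e-09), with no overlap. ATF3, a stress-induced repressor, changed by 1.76 ± 0.22, and its groups overlapped. SOCS1 (0.26 ± 0.24, adjusted p = 0.63) and SOCS3 (-0.13 ± 0.43, 0.92) did not pass.

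Class I antigen presentation rose broadly, with 14 of 20 tested genes higher and 0 lower (median 0.87), and 14 of 18 tested were higher in depth-matched cells. HLA-B had 884, 771, 1180.0, 995 and 1339 CPM in interferon-response cells, against 123, 157, 208, 161 and 265 CPM in marker-negative cells (2.45 ± 0.09, adjusted p = 1.7e-15). Reads of HLA genes can be shared among the class I copies. HLA-F changed by 2.16 ± 0.14 and B2M, the shared light chain, by 1.27 ± 0.08. The immunoproteasome subunit PSMB9 (2.0 ± 0.13) and the peptide transporter TAP1 (1.41 ± 0.13) rose as well, and so did NLRC5, the transactivator of these genes (1.34 ± 0.23). TAP2 (0.41 ± 0.16, adjusted p = 0.15) and the folding chaperone CALR (-0.02 ± 0.07, 0.93) did not pass. No gene of the 10 listed for class II presentation was in the matrix, from which the authors had removed sparse genes.

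Chemokines and NF-kB targets gave 10 rises and 0 falls of 13 tested (median 0.95), and 4 rises of 10 tested in depth-matched cells. CCL5 (chr17:35871491-35880793), a chemokine that draws T cells, had the largest fold change of all tested genes, closely followed by IFIT2. CCL5 had 38.7, 13.7, 69.4, 370.4 and 1279 CPM in interferon-response cells, against 0.283, 0.165, 0.323, 0.578 and 3.88 CPM in marker-negative cells (8.29 ± 0.18, adjusted p = 7.8e-19). A single cell held 28.8% of all its interferon-response counts. CXCL10, a ligand of CXCR3, had 39.99, 3.42, 13.3, 25.9 and 154 CPM in interferon-response cells, against 0, 0.495, 1.45, 0.867 and 1.27 CPM (5.64 ± 0.46), with 20.6% of its counts in 1 cell. TNFAIP3 and BIRC3, feedback genes of NF-kB, changed by 1.97 ± 0.35 and 1.57 ± 0.29, both tested too thinly for the depth-matched fit. LIF (1.14 ± 0.28) and NFKBIA (0.65 ± 0.15) lost their calls in depth-matched cells (adjusted p = 0.27 and 0.13), and each also lost it without D0 replicate 1 and without D0 replicate 2; LIF lost it without D3 as well.

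CCL5 marked a division within the interferon-response cells. This split was chosen after its values were seen and carries no test. Of 88 cells in the series with a CCL5 count, 40 were interferon-response cells (45.5%), 5 of 8 in D0 replicate 1, 2 of 7 in D0 replicate 2, 5 of 11 at D3, 10 of 22 at D6 and 18 of 40 at D9. These cells and the interferon-response cells without CCL5 had like depth, with median totals of 26726 and 27847.5 counts. IFNL1 had a count in 18 of the 40 (45.0%) and in 3 of the others (2.0%). Both IFNB1 and IFNL1 were counted in 3 interferon-response cells. OASL had a count in 95% of the cells with CCL5 and 35.5% of those without, IFIT2 in 72.5% and 15.8%, CFB in 72.5% and 17.8%, CXCL10 in 40% and 5.26%, and IFIT3 in 97.5% and 62.5%.

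The order was the other way for a second set of interferon-stimulated genes. IFI27 had a count in 10.0% of the cells with CCL5 and 40.1% of those without, XAF1 in 10.0% and 34.9%, IFITM1 in 25% and 55.9%, and IRF7 in 45.0% and 73.0%. Of the rule genes, OAS1 had a count in 60.0% and 87.5%, and MX1 in 85.0% and 98.0%. OAS1, MX1 and IFIT3 are genes of the rule, so their order between these cells was partly set by the selection. HLA-B was alike, in 97.5% and 98.7%. Summed within each library, OASL was at 589, 154, 1171, 2845 and 2345 CPM in cells with CCL5, against 3.51, 34.4, 47.7, 24.4 and 344 CPM in those without. MX1 was at 111, 77.1, 86.8, 288 and 110.5 CPM in cells with CCL5, against 189, 261, 361, 362 and 381 CPM. IRF7, IRF9 and BST2 were lower in the cells with CCL5 in all 5 libraries, and ISG15, IFI44, HERC5, PLAAT4, SAMD9, DDX58, CFB and ZC3HAV1 were higher in all 5. OASL was higher and the rule gene MX1 lower with CCL5 in all 5 libraries, but not every gene kept its direction in the untreated ones. In D0 replicate 1, with 5 CCL5 cells, IFI27 was at 270 CPM with CCL5 and 181 CPM without, and OAS1 at 51.1 and 37.1 CPM. In D0 replicate 2, with only 2 CCL5 cells, IFIT3 was at 30.9 CPM with CCL5 and 62.7 CPM without.

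Cells with CCL5 also differed in genes outside the interferon list. KRT17, a keratin of basal and injured epithelium, was at 363.5, 478, 897, 1392 and 1828 CPM in cells with CCL5, against 70.8, 130.3, 57.1, 59.2 and 118 CPM in those without. FN1, the matrix protein fibronectin, had a count in 62.5% of cells with CCL5 and 22.4% of those without, and IGFBP6 in 42.5% and 13.8%, and both were at higher CPM in all 5 libraries. PMAIP1, which encodes the death factor NOXA, was at 191 CPM with CCL5 and 64.3 CPM without, and was higher in 4 of 5 libraries.

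**Figure D4:**
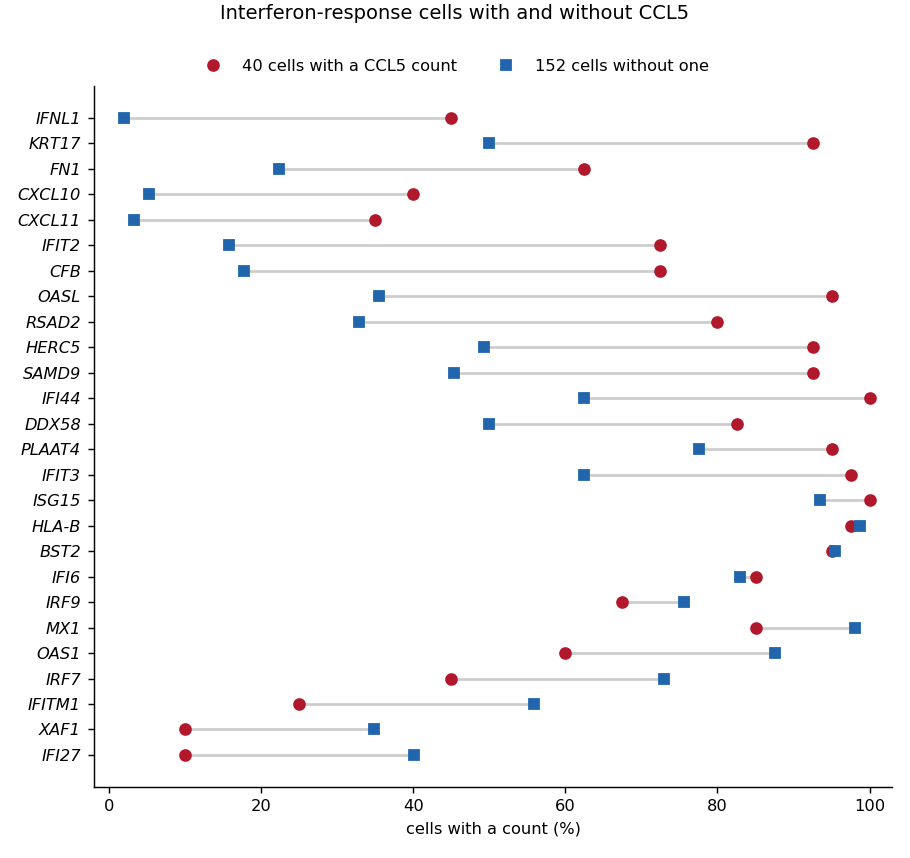
Percentage of interferon-response cells with a count of each gene (horizontal axis), for the 40 cells with a CCL5 count (red circles) and the cells without (blue squares). Genes at the top, such as OASL (95% and 35.5%), were found more often with CCL5, and those at the bottom, such as IFI27 (10.0% and 40.1%), more often without it. IFIT3, MX1 and OAS1 are genes of the rule, so their positions were partly set by the selection.

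Cell death genes gave 4 rises and 1 fall of 19 tested (median 0.23), where 3.22% of all genes rose and 2.06% fell. TNFSF10, the death ligand TRAIL, had 9.89, 10.2, 43.3, 84.2 and 101 CPM in interferon-response cells, against 2.36, 1.87, 9.03, 11.8 and 16.6 CPM in marker-negative cells (2.44 ± 0.17, adjusted p = 6.1e-10). PMAIP1 had 87.3, 77.4, 48.9, 99.7 and 147 CPM in interferon-response cells, against 46.0, 49.0, 36.3, 43.9 and 48.5 CPM (0.92 ± 0.13), and the inflammatory caspase CASP4 changed by 0.90 ± 0.16. BBC3, which encodes PUMA, changed by 1.02 ± 0.21 and lost its call in depth-matched cells (adjusted p = 0.23). The survival factor BCL2 fell by 1.05 on the log2 scale (± 0.31, adjusted p = 0.048) on 29 counts in interferon-response cells, and the call was lost without any 1 of 4 libraries, all but D9.

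Cell cycle and stress lists moved little, where 3.22% of all genes rose and 2.06% fell. The single rises in the heat shock, p53 and ERK lists are near that share and are given as a description. None of 32 S phase genes changed (median 0.01). Of 36 G2 and mitosis genes 5 rose, NDC80 by 0.49 ± 0.09 the most, and in depth-matched cells 1 rose and 1 fell. HMMR, DLGAP5 and KIF20B each lost their calls in depth-matched cells (adjusted p = 0.063, 0.94 and 0.11), without D3, without D9 and without 1 untreated library, replicate 1 for HMMR and DLGAP5 and replicate 2 for KIF20B. Of 19 genes of the integrated stress response 4 rose, ATF3, DDIT3, which encodes CHOP (0.80 ± 0.13), DDIT4 (0.42 ± 0.10, lost without D0 replicate 1 or 2) and XBP1 (0.40 ± 0.08). Of 19 heat shock genes HSPB1 rose (0.71 ± 0.12), of 16 p53 targets GADD45A (0.34 ± 0.09, adjusted p = 0.68 in depth-matched cells), of 4 metallothioneins MT1F (0.43 ± 0.13, 0.34 in depth-matched cells) and of 16 ERK output genes PHLDA1 (0.68 ± 0.15, lost without D0 replicate 1 or 2). The GADD45A call was lost without any 1 library but D9, and the MT1F call without any 1 but D0 replicate 2.

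In the list of ERBB and IGF genes 2 of 17 rose and 1 fell, where 3.22% of all genes rose and 2.06% fell. EGFR, the target of afatinib that this line carries in amplified form, had 1051, 1060.3, 939, 919 and 613 CPM in interferon-response cells, against 814, 872, 1005, 851 and 585 CPM in marker-negative cells (0.08 ± 0.08, adjusted p = 0.66), and was called higher in depth-matched cells (0.28, adjusted p = 0.003). IGFBP2, a carrier of insulin-like growth factors, had 76.5, 112, 213, 180.0 and 198 CPM in interferon-response cells, against 136, 133, 241, 227 and 306 CPM (-0.52 ± 0.09, adjusted p = 0.00091), lower in 5 of 5 libraries and in depth-matched cells (-0.50). IGFBP6 had 11.2, 14.8, 6.11, 32.4 and 56.2 CPM in interferon-response cells, against 0.660, 2.25, 3.55, 2.79 and 4.10 CPM (3.03 ± 0.34). IGFBP3 changed by 1.04 ± 0.14.

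Of 14 genes of basal and squamous differentiation 5 rose and 1 fell (median 0.41), and in depth-matched cells 4 of 13 rose and 3 fell. Over all genes 3.22% rose and 2.06% fell. With 4 or more rule genes, and likewise without D9, 4 of 14 rose and 4 fell. In the untreated libraries alone 6 of 16 rose and 7 fell, and in the afatinib libraries alone 7 of 14 rose and 1 fell. The members named next are the called ones with the largest changes, and the one that fell is not among them. S100A8 and S100A9, the partners in calprotectin, changed by 2.15 ± 0.27 and 1.58 ± 0.12, the protease inhibitor SLPI by 0.81 ± 0.09 and KRT17 by 1.29 ± 0.34 (adjusted p = 0.027). KRT17 was higher in 4 of 5 libraries and lost its call without D6 and without D9. The call was also lost with DESeq2, without the library block, with 4 or more rule genes and in cells under 10% mitochondrial counts. Marker-negative cells had 133, 147, 93.2, 61.6 and 83.0 CPM of KRT17. The interferon-response cells without CCL5, with the values given above, lay below these in every library but D9. Of 14 luminal genes XBP1 and the epithelial factor ELF3 (0.59 ± 0.11) rose. Of 6 mesenchymal genes FN1 rose (1.98 ± 0.26, 24.7% of its counts in 1 cell), while VIM (-0.61 ± 0.10) and THBS1 (-0.62 ± 0.13, lost without D0 replicate 1) fell. Of the 2 tested fibroblast and endothelial markers 0 changed.

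Among genes with at least 10 CPM and 1 direction in all 5 libraries, the largest falls were much smaller than the largest rises and spread over unlike genes. NRK, a kinase, had 15.0, 29.6, 17.2, 19.4 and 8.52 CPM in interferon-response cells, against 44.4, 48.4, 30.2, 29.4 and 24.97 CPM in marker-negative cells (-1.13 ± 0.16, adjusted p = 7.6e-05). ADAMTS1, a secreted protease, had 48.2, 52.4, 35.0, 18.1 and 8.52 CPM in interferon-response cells, against 97.7, 93.2, 49.5, 32.2 and 27.7 CPM (-0.97 ± 0.13). ALCAM, an adhesion molecule, had 19.3, 33.0, 85.0, 126 and 117 CPM in interferon-response cells, against 35.1, 36.8, 186, 208 and 195 CPM (-0.86 ± 0.11). Their ranges over libraries overlapped between the states. NPR3 (-1.11), LRP3 (-1.02), TRIB2 (-0.95), NTRK2 (-0.92, lost without D3) and AMIGO2 (-0.88) also fell and were called in depth-matched cells. LINC02969 (-1.18), GAS6 (-0.87), ANKRD36B (-0.87, lost without D3 or D6, and a member of a family of near-copies) and the mitochondrially encoded MT-ND6 (-0.88) were not (adjusted p = 0.34, 0.20, 0.30 and 0.46). MT-ND6 was at 0.07 among cells with under 10% mitochondrial counts.

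DHRS3, a retinal reductase, was in none of the gene lists, as were LGALS9, PLAAT4 and CFB among the 25 largest rises. DHRS3 had 32.7, 37.6, 29.4, 35.0 and 28.1 CPM in interferon-response cells, against 1.41, 1.92, 4.19, 3.37 and 6.49 CPM in marker-negative cells (3.27 ± 0.27, adjusted p = 1.2e-08), with no overlap.

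The last comparison asked whether the difference between interferon-response and marker-negative cells was the same with and without afatinib. An interaction term in edgeR called 14 of 11771 genes (0.119%), 9 with a larger and 5 with a smaller change under afatinib, and 3 of 58 interferon-stimulated genes were among them, ISG15, DDX60L and ZC3HAV1, all larger (median difference 0.30, against 0.03 for all genes). ISG15 changed by 5.20 in the afatinib libraries and by 3.53 in the untreated ones (difference 1.65 ± 0.23 SE, adjusted p = 0.0018), and IFIH1 by 3.83 and 1.97 (1.85 ± 0.32, adjusted p = 0.0084), a call lost in depth-matched cells (1.73, adjusted p = 0.16). The ISG15 call was lost with depth matching and thinning together. KRT17 changed by 2.29 and -0.16 (2.43 ± 0.41, adjusted p = 0.0052). In KRT17, interferon-response cells reached 154, 401 and 803 CPM at D3, D6 and D9, against 113 and 156 CPM in the untreated libraries, while marker-negative cells had 61.6 to 93.2 CPM with afatinib and 133 and 147 CPM without. MGP, a secreted inhibitor of mineralization, went the other way, at 1303, 2567 and 1350.3 CPM in interferon-response cells at D3, D6 and D9, against 3198 and 3692 CPM in the untreated ones (difference -1.38 ± 0.20, adjusted p = 0.0020).

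DESeq2 called 6 genes for the same term, 0 of them in the interferon-stimulated list, with adjusted p of 0.10 for ISG15, 0.53 for IFIH1, 0.66 for KRT17 and 0.085 for MGP. The interaction leaned on the untreated libraries. Without D0 replicate 1 it called 1 gene and without D0 replicate 2 it called 4, with the lone untreated library then assumed to vary like the others, and without D3, D6 or D9 it called 60, 26 or 60. Cells with CCL5 made up 5 of 37, 2 of 31, 5 of 41, 10 of 36 and 18 of 47 interferon-response cells in library order, and their part in these differences was not tested. Depth matching paired cells within a library and did not equalise depth between treatments. With every cell thinned to 5000 counts before the rule, 5 and 7 untreated cells passed, against 16, 20 and 18 afatinib cells. The part of depth in the treatment differences was not tested.

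**Figure D5:**
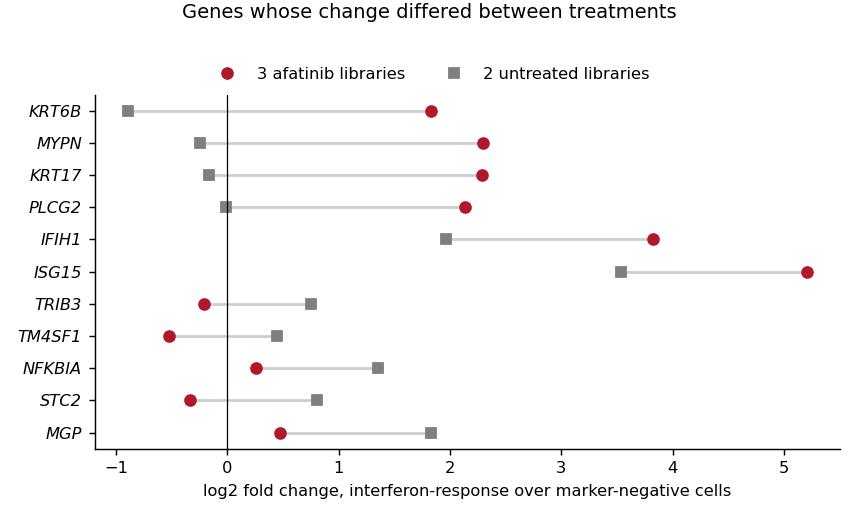
Log2 fold change of interferon-response over marker-negative cells (horizontal axis) for 11 genes whose change differed between treatments, in the 3 afatinib libraries (red circles) and the 2 untreated libraries (grey squares). ISG15 and IFIH1 rose in both with a wider gap under afatinib (5.20 and 3.53, 3.83 and 1.97), and MGP changed by 0.47 with afatinib and 1.83 without.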

How the data were processed

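Cells of MDA-MB-468 were profiled with Chromium 3′ chemistry. The authors aligned reads with Cell Ranger 6.1.2 to GRCh38, dropped cells under 5000 counts, cells with outlying mitochondrial shares and putative doublets, and adjusted the counts with ComBat-seq for the 2 captures of day 0. The deposited values are therefore expected counts after adjustment, whole numbers for 12474 genes, and the adjustment can draw the day 0 libraries together so that p-values may be too small. The authors also removed genes found in few cells at a low mean. No further doublet call was made.

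The members and gene lists were chosen with earlier results of these data known. Counts were summed per library and state. edgeR 4.0.16 (R 4.3.3) was run on these sums with TMM factors, filterByExpr, library as a block and Benjamini-Hochberg adjustment, with the 6 rule genes left out, and was tested on simulated data. A state by treatment term gave the treatment difference. Shares and cell measures were compared with exact permutation tests (scipy 1.17.1). Phases were assigned with scanpy 1.11.5 from 32 and 36 genes. Depth matching paired cells within 20% of each other's total. Named genes were the 25 largest rises and 12 largest falls with at least 10 CPM and 1 direction in all 5 libraries, then up to 4 called per list without that minimum, all receptor, STAT and IRF genes (some genes are not reported here), and IGFBP2, EGFR and CCL5, with 5 each way for the treatment difference. Genes of the CCL5 division were chosen after their values were seen. Alternatives were DESeq2 1.42.0, RLE factors, no filter, no block, other rules and cells, and each library left out; 2 that thin the summed counts were added after seeing the data.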

Additional observations from a re-analysis of the deposited data

Results flagged for a closer look

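The following genes were singled out because the difference between interferon-response and marker-negative cells was not the same in afatinib and untreated libraries by the edgeR interaction term, given as the afatinib minus the untreated log2 fold change. The difference was 1.65 for ISG15, 1.85 for IFIH1, 2.43 for KRT17, 2.70 for KRT6B, 2.52 for MYPN and 2.09 for PLCG2. It was -1.38 for MGP, -1.16 for STC2, -1.11 for NFKBIA, -0.99 for TM4SF1 and -0.98 for TRIB3. Reads of KRT6B can be shared with its near-copy KRT6A. KRT6B had 41.6, 14.2 and 53.7 CPM in interferon-response cells at D3, D6 and D9, against 22.4 and 18.2 CPM in the untreated libraries, while its marker-negative cells had 16.9, 7.41 and 6.93 CPM with afatinib, against 39.6 and 32.5 CPM untreated. PLCG2, a phospholipase, had 46.1, 58.3 and 46.0 CPM in interferon-response cells with afatinib, against 41.3 and 55.8 CPM untreated, and 17.7, 13.3 and 5.22 CPM in marker-negative cells with afatinib, against 41.6 and 50.3 CPM untreated. For PLCG2 the levels of marker-negative cells moved with treatment and those of interferon-response cells stayed within 41.3 to 58.3 CPM. In depth-matched cells MYPN (3.31, adjusted p = 0.11) and NFKBIA (-0.76, adjusted p = 0.37) lost their edgeR calls, as did IFIH1. Without D0 replicate 1 each lost its call except ISG15, and without D0 replicate 2 each lost it except KRT6B and NFKBIA, all in the same direction as before.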

How the results depend on the processing

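The rises numbered 379 and came to 87 without the library block, 228 in depth-matched cells, 104 with every cell thinned to 5000 counts before the rule (3 afatinib libraries only), 251 with 2 or more rule genes, 250 in cells under 10% mitochondrial counts, 83 in G1 cells (D3 and D6 only), 156 with the summed counts thinned and 66 with depth matching and thinning. Leaving out 1 library gave 252 to 346. The 243 falls came to 116 with DESeq2, 0 without the block, 15 with thinning before the rule, 18 in G1 cells, 90 with thinned sums, 47 with matching and thinning, and 113 to 306 with 1 library left out. The 14 treatment differences came to 6 with DESeq2, 24 without a filter, 5 with thinned sums, 2 with matching and thinning and 1 to 60 with 1 library left out, and could not be fitted in G1 cells or with thinning before the rule. The share difference was 4.39 points in cells under 10% mitochondrial counts and -2.24 to 2.59 with 1 library left out. The difference in median total was 20 counts in depth-matched cells and 217 with thinning before the rule. Signs turned with thinning before the rule for NPR3 (0.086), NTRK2 (0.022), BBC3 (-0.79) and MT1F (-0.34), in cells under 10% mitochondrial counts for MT-ND6 (0.065), in G1 cells for HMMR (-1.61), DLGAP5 (-2.02), KIF20B (-0.48), MT1F (-0.71), KRT17 (-0.51) and SLPI (-0.025), and with 2 or more rule genes for EGFR (-0.027). Fewer cells or counts entered each thinned, matched or G1 fit, and other causes were not tested.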
